A study of Mus musculus with 2 samples.

Results

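The microRNA genes described here carry the symbols Mir6897 to Mir7094, a run of late-numbered mouse entries proposed as mirtrons. They were chosen by name alone: every counted gene with a GENCODE M21 symbol in the numbered series from Mir6880 to Mir7094, any suffix included. This gave 178 of the 1973 microRNA genes counted, or 9.02%, and these 178 are called the members. Another 23 genes with such symbols in M21 were not among the counted genes, so nothing can be said of their levels. The genes Gm27740 and Gm27775, which RefSeq ties to miR-6967, lay outside the rule because M21 gives them other symbols, and neither had a count. Small RNA of mouse liver at embryonic day 13.5 was sequenced in 2 libraries, numbered by the labels as biological replicates of 1 untreated group. Each was made from livers of healthy B6NCrl embryos, with males and females pooled, and the labels give both the same donor record and a size limit of 30 bases.

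A canonical microRNA is cut from a longer hairpin transcript by the nuclease Drosha in the nucleus and by Dicer in the cytoplasm. A mirtron skips Drosha: the hairpin is a short intron, and the spliceosome makes its ends when it joins the neighbouring exons. In a tailed mirtron only one end of the hairpin lies at a splice site, and the rest of the intron hangs on as a tail that has to be trimmed before Dicer can act. Because introns begin with GU and end with AG, after a tract rich in cytosine and uracil, these letters are built into the arms of such hairpins.

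The hairpins below show the geometries met among the members, with the intron's first GU and last AG in capitals where the hairpin end lies at that splice site. Sequences are from RefSeq on GRCm38.p6, and each is read 5′ to 3′ on the strand of its gene. Mir6944 (chr13:55477681-55477776, minus strand) fills intron 9 of 14 of Dbn1, which encodes the actin-binding protein drebrin. Mir7091 (chrX:74274027-74274105, minus strand) fills an intron of Dnase1l1, a gene of the DNase I family. Mir7069 (chr8:84867947-84868008, plus strand) and Mir7083 (chr9:21809941-21810000, minus strand) reach only the 3′ end of their introns. Mir877 (chr17:35960730-35960814, minus strand), an established mirtron outside the members, fills an intron of Abcf1 and is shown for comparison.
Mir6944: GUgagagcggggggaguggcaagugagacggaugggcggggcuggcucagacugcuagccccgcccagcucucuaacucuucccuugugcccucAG
Mir7091: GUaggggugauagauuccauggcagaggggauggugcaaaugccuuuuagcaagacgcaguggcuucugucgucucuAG
Mir7069: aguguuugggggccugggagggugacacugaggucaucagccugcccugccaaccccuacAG
Mir7083: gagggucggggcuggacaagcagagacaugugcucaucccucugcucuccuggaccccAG
Mir877: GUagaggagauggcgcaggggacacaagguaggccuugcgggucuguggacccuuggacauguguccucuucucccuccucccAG

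The mature arms of the members with the most counts follow, with the seed, bases 2 to 8, in capitals, since the seed is the part that pairs with target messages. RefSeq gave mature sequences for 6 of the 7 members detected in both libraries, the exception being Mir6971. The 12 arms carried 12 different seeds, so no pair of them falls into a shared seed family.
miR-7036b-5p: aCGCGGGGuucucuguggaagc
miR-7036b-3p: uUCCUGGUgggccucggggucc
miR-6936-5p: gUGAGCCAcugccgugcccgc
miR-6936-3p: cGGCGCGCgcggucgcucacc
miR-7069-5p: uUGGGGGCcugggagggugacac
miR-7069-3p: cCUGCCCUgccaaccccuaca
miR-6944-5p: gUGAGAGCggggggaguggcaag
miR-6944-3p: uAACUCUUcccuugugcccucag
miR-7083-5p: uCGGGGCUggacaagcagaga
miR-7083-3p: uCUGCUCUccuggaccccag
miR-6960-5p: cAGGAUGAgaagaguuuggcug
miR-6960-3p: aGCCAACCaccucucuccucag

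The libraries held 2607403 and 4286742 counts on the strand of the microRNA genes, and levels are given as CPM, counts scaled to these totals and not divided by hairpin length. A gene at 0 may still reach 3 counts, which is 1.15 CPM in replicate 1 and 0.700 CPM in replicate 2. Hepatocyte Mir122 stood at 79994 ± 213 CPM (SD, n = 2), endothelial Mir126a at 56024 ± 2091 and erythroid Mir451a at 18546 ± 11026, so defining microRNAs of fetal liver and its blood and vessels were present. The skeletal muscle marker Mir206 stood at 697 ± 247 CPM, and Mir1a-1, of heart and skeletal muscle, had 1 and 0 counts. Mir1a-1 and the neural markers Mir124a-1 and Mir9-2, which had no counts, share words of 20 bases with other microRNA loci. Reads that map to several places were left out, so these low counts say nothing of muscle or neural RNA.

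Most members had a count, but at very low level, and 52 had only 1 to 3 counts over both libraries. A count in either library was found for 121 of 178 members, or 68.0%, against 36.0% of all 1973 genes. The genes most like the members by position had counts in a similar share: 24 of 33 other genes with only the 3′ end at a splice site and 8 of 11 with both ends there, or 72.7% in each list. At least 10 counts in each library, the limit used for detection, was reached by 7 members, or 3.93%, against 18.6% of all genes. Among the 1044 genes that share no word of 20 bases with another microRNA locus this share was 27.4%. In replicate 1 alone 9 members had at least 10 counts, and in replicate 2 alone 18. Together the members held 323 counts in replicate 1 and 619 in replicate 2, a summed level of 134 ± 14.5 CPM (SD, n = 2). This is 0.0124% and 0.0144% of the counts. Of the 178 hairpins, 3 held a word of 20 bases found at another annotated microRNA locus, against 929 of 1973 genes, and none of these 3 had a count. Reads that map to several places were left out, and the share of all genes with a count was 14.9% of the 929 and 54.9% of the 1044 genes that share no word.

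Most members with counts had few. Of the 178, 57 had no count, 52 had 1 to 3 counts over both libraries, 42 had 4 to 9, 18 had 10 to 19 and 9 had 20 to 99. None reached 100 counts, a total that 285 of the 1795 other genes passed. Of the 195 other late-annotated genes, with numbers of 6000 or more, 133 had no count and 8 reached 100. The 33 other genes with only the 3′ end at a splice site, a list drawn after the data were seen, were like the members below 20 counts. Above that they had a larger share, with 12.1% at 20 to 99 counts against 5.06% of members. Of the 33, 9 had no count, 19, or 57.6%, had 1 to 19 counts, against 62.9% of members, and Mir382 alone reached 100. Counts were seen in both libraries for 59 members, only in replicate 1 for 27 and only in replicate 2 for 35. The median member had 0 counts in replicate 1 and 1 in replicate 2.

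**Figure D1:**
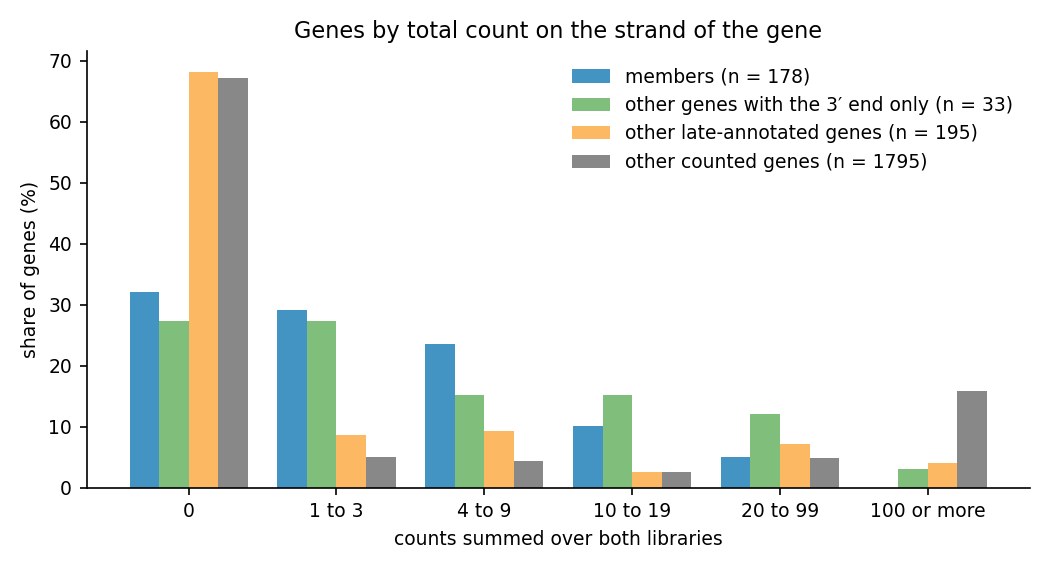
Share of genes (%) by same-strand counts summed over both libraries, for the 178 members, 33 other genes with only the 3′ end at a splice site, 195 other late-annotated genes and all 1795 other counted genes. In the bins of 1 to 19 counts lie 62.9% of the members and 57.6% of the 33 genes; no member is in the bin of 100 or more.

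The member with the highest mean was Mir7036b, at 9.43 ± 2.49 CPM (SD, n = 2) on 20 counts in replicate 1 and 48 in replicate 2. It took place 307 of the 1973 genes by mean level. Its hairpin (chr5:34574151-34574213, plus strand) lies in Add1, the gene of alpha-adducin, which caps actin filaments and ties them to spectrin in the red cell membrane. It is the only member inside an intron with neither end near a splice site, and 1 Add1 transcript has an exon over the whole hairpin. The 95% exact binomial intervals were 4.69 to 11.8 CPM in replicate 1 and 8.26 to 14.8 in replicate 2 and overlapped. These intervals cover counting error only.

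Mir6936 followed at 8.80 ± 0.570 CPM on 24 and 36 counts. It begins at the first base of intron 1 of 9 of Sirt7, which encodes an NAD-dependent deacetylase of the nucleolus, and stops 12 bases before the end of this intron of 66 bases. In 3 Sirt7 transcripts an exon covers the hairpin. It was the higher of the first 2 members in replicate 1, and Mir7036b was the higher in replicate 2, so their order was not settled. Per 100 bases of hairpin the order also turned, with 16.3 CPM for Mir6936 and 15.0 for Mir7036b.

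Mir7069 stood at 7.80 ± 0.185 CPM on 20 and 34 counts. Its host is intron 10 of 12 of Farsa, which encodes the alpha subunit of the cytoplasmic phenylalanyl-tRNA synthetase, and a tail of 28 bases separates the hairpin from the 5′ splice site. Mir6944, whose hairpin is the whole Dbn1 intron of 96 bases, stood at 6.48 ± 0.593 CPM on 18 and 26 counts. Among the 18 members with both ends at splice sites, Mir6944 alone was detected, while 4 had at least 10 counts in replicate 2. The intervals of Mir7069 and Mir6944 overlapped in both libraries.

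Mir7083 stood at 5.14 ± 1.31 CPM on 11 and 26 counts, at the 3′ end of intron 39 of 49 of Dock6, which encodes an exchange factor for Rac and Cdc42. Mir6971 stood at 4.28 ± 0.450 CPM on 12 and 17 counts, in intron 19 of 27 of Skiv2l, the gene of the RNA helicase of the Ski complex. Mir6960 stood at 4.17 ± 0.615 CPM on 12 and 16 counts, in an intron of 1963 bases of Troap, which encodes a protein of the mitotic spindle. The 7 detected members held 36.2% of member counts in replicate 1 and 32.8% in replicate 2, so most member counts came from genes below the detection limit.

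**Figure D2:**
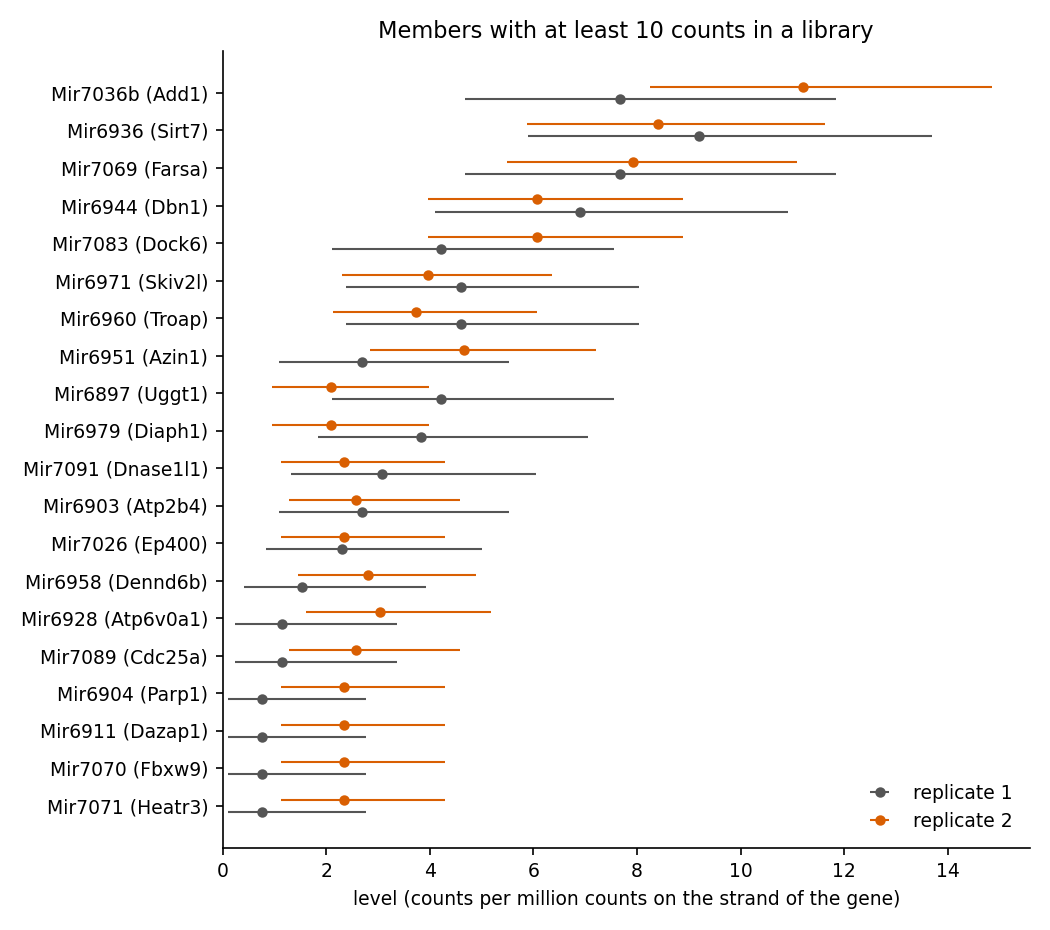
Levels in CPM of the 20 members with at least 10 counts in a library, with the host gene in brackets. Points are libraries and bars are 95% exact binomial intervals, which cover counting error only; the intervals of the libraries overlap for every gene drawn.

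A further 13 members, against 2.33% of all genes, had at least 10 counts in 1 library only. In Mir6897 (Uggt1, a sensor of glycoprotein folding) and Mir6979 (Diaph1, a formin) this was replicate 1, with 11 and 9 counts and with 10 and 9 counts. In the other 11 it was the deeper replicate 2. Mir6951, at the end of the last intron of Azin1, the antizyme inhibitor gene, had 7 and 20 counts. Mir6928 in Atp6v0a1, a subunit of the vacuolar proton pump, had 3 and 13 counts.

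Mir6903 in Atp2b4, a calcium pump of the plasma membrane, had 7 and 11 counts. Mir7026 in Ep400, a chromatin remodeller, had 6 and 10. Mir7089 in Cdc25a, a phosphatase that drives the cell cycle, had 3 and 11. The pattern of 2 and 10 counts recurred in 4 genes: Mir6904 in Parp1, the DNA damage sensor, Mir6911 in Dazap1, an RNA-binding protein, Mir7070 in Fbxw9 and Mir7071 in Heatr3.

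Low counts were also met among members that fill a short intron. The 5 members with the shortest host introns among those with both ends at splice sites and a count in each library were Mir6958, Mir7091, Mir7018, Mir7070 and Mir7088. This choice leaves out Mir6936, Mir7069 and Mir6944, described above, which had higher levels in introns of 66, 90 and 96 bases. Mir6958, in an intron of 73 bases of Dennd6b, had 4 and 12 counts. Mir7091, in 79 bases of Dnase1l1, had 8 and 10. Mir7018, in 85 bases of Hspg2, the gene of the basement membrane protein perlecan, had 2 and 7. Mir7088, in 86 bases of Mst1, which encodes the liver-secreted macrophage stimulating protein, had 3 and 5. In each the counts in replicate 1 were below the detection limit.

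Nearly all hairpins end where an intron ends. The rule used symbols only, but these entries were proposed as mirtrons, so their position is not independent of the choice. The 3′ end of the hairpin lay at the last base of an M21 intron on the same strand in 164 of 178 members, or 92.1%, and within 10 bases of it in 173. Among 709 other counted microRNA genes that overlap an intron on the same strand, 21, or 2.96%, ended at the last base. The 5′ end lay at the first base of the intron in 18 members, or 10.1%, against 1.27% of the other intronic genes. Both ends lay within 10 bases of the splice sites in 18 members, which is the geometry of a mirtron without a tail, and at the exact bases in 14 of these.

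The common form was the hairpin with a 5′ tail, with only its 3′ end at a splice site, seen in 155 members. The tail, the part of the intron upstream of the hairpin, had a median of 421 bases and ran from 11 to 36205 bases, the longest for Mir6899 in Klf7. The host intron was under 150 bases in 39 of these members and over 1000 bases in 51. Over all members the intron had a median of 418 bases, with quartiles of 110 and 1138, against a median of 12974 bases for the other intronic genes. The hairpins were short, with a median of 66 bases against 94 for all other genes. Neither trait was particular to the members. The 33 other genes with only the 3′ end at a splice site had a median hairpin of 64 bases and intron of 562. The 155 members of that form had medians of 65 and 488 bases. In 7 members the hairpin ran 6 or 7 bases past the 3′ splice site into the next exon, among them Mir6903 and Mir6904.

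**Figure D3:**
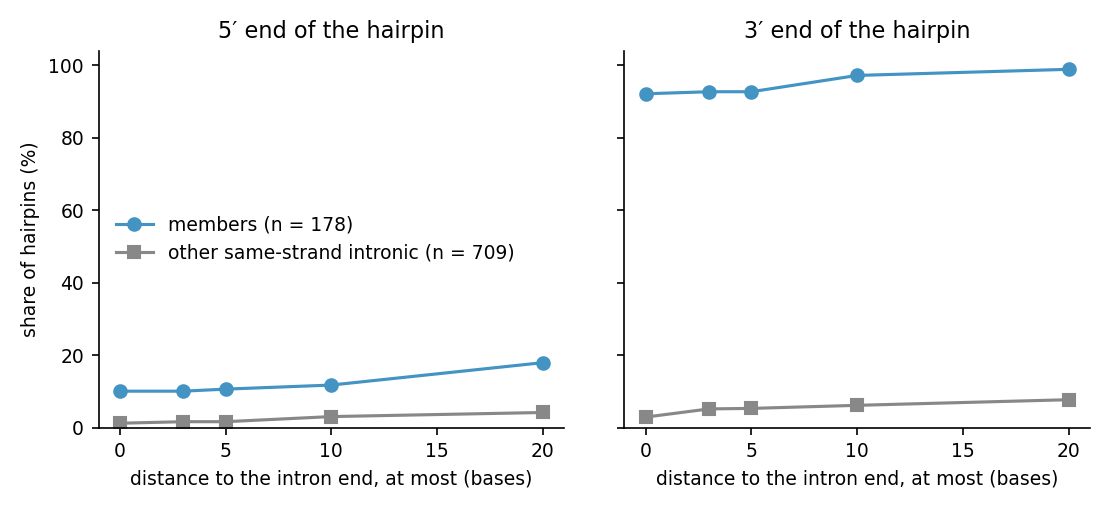
Share of hairpins (%) whose 5′ end (left) or 3′ end (right) lies within a given number of bases of the end of a same-strand intron, for the 178 members and 709 other intronic microRNA genes. At 0 bases the members stand at 92.1% for the 3′ end and 10.1% for the 5′ end.

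Only 5 members did not end within 10 bases of a 3′ splice site, and these held the 2 highest levels. They were Mir7036b and Mir6936, described above, Mir7025 in Pdgfra with 0 and 3 counts, Mir6977 in Ptprs with 1 and 0, and Mir6927 in Mllt6 with no counts. Mir6936, Mir6977 and Mir6927 stop 12, 15 and 17 bases before the intron end, and 176 members end within 20 bases of it. The split therefore depends on the limit of 10 bases, and it was drawn after the values were seen. With that limit 2 of the 5, Mir7036b and Mir6936, were detected, against 5 of the other 173. The hairpins of both lay under an annotated exon of some host transcript, as did those of 28 members in all. Of those 28, 2 were detected and 21 had a count, and of the other 150, 5 were detected and 100 had a count. Rows of the tables combine all reads over a hairpin, so whether the reads match the annotated arms was not tested.

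Short and long host introns gave similar sums. The 89 members with introns up to the median length summed to 67.5 ± 8.13 CPM (SD, n = 2), with 61 of them counted and 4 detected. The 89 with longer introns summed to 66.6 ± 6.38 CPM, with 60 counted and 3 detected. Shorter and longer introns gave 61.7 and 62.1 CPM in replicate 1 and 73.2 and 71.1 in replicate 2, so the direction differed between libraries. By geometry, a count was found for 12 of 18 members with both ends at splice sites and for 105 of 155 with the 3′ end only. Median mean levels were 0.600 and 0.233 CPM, both under the level of 3 counts in either library.

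**Figure D4:**
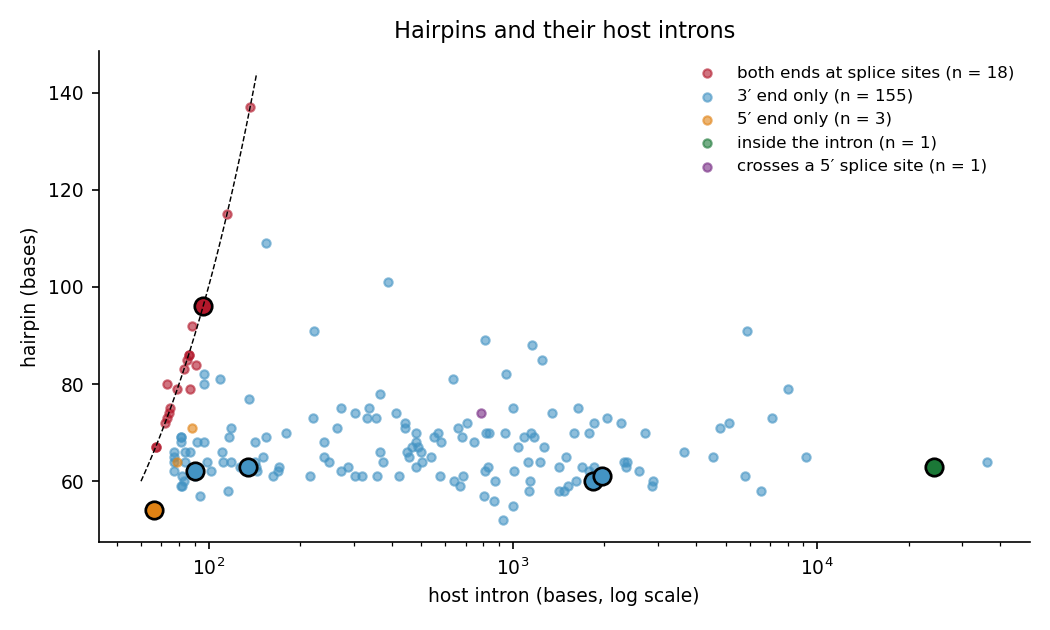
Hairpin length against host intron length (log scale, bases) for the 178 members, coloured by which hairpin ends lie within 10 bases of a splice site; large outlined points are the 7 detected members. Hairpins that fill their intron lie on the dashed line. Those with only the 3′ end at a splice site have a median length of 65 bases and run from 52 to 109 bases.

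The letters of the splice sites appear in the hairpins, as a position at intron ends entails. Of 161 members matched to a RefSeq hairpin, 149, or 92.5%, ended in AG and 132 ended in CAG, against 8.76% ending in AG among 708 other matched hairpins. AG also ended 6 of 8 other matched hairpins with both ends at splice sites. It ended 11 of 30 with only the 3′ end there. GU at the start was found in 27 members, or 16.8%, against 6.78%. With both ends at splice sites it was found in 11 of 15 matched members, or 73.3%. Of 8 other matched hairpins with both ends there, 5, or 62.5%, began with GU. Of the 27 members, 11 had both ends at splice sites and 3 had only the 5′ end there. The other 13, or 9.22% of 141 hairpins with only the 3′ end at a splice site, do not begin at one. Of the 27, 10 began with GUGAG, a common 5′ splice-site sequence. Of the 153 annotated 3p arms, 117 ended at the last base of the intron and 23 ended 1 or 2 bases before it. Of the 155 annotated 5p arms, 14 began at the first base of the intron, as in miR-6944-5p.

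The 2 arms differed in composition. The 3p arms had a median of 71.4% cytosine and uracil (quartiles 65.2% and 77.3%), against 52.2% in 558 3p arms of other counted genes. The 5p arms had a median of 45.5% guanine, against 28.6% in 547 other 5p arms. The letters GGG, read on the strand of the arm, were found in the seed of 89 of 155 member 5p arms, or 57.4%, against 13.3% of other 5p arms. Other genes with hairpin ends at splice sites were not set apart in these shares. Among them, Mir702 had 57.1% guanine in its 5p arm and 81.8% cytosine and uracil in its 3p arm. Whether the composition is particular to the members was therefore not tested. The median predicted minimum free energy was -0.40 kcal/mol per base for members and -0.42 for the other hairpins.

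**Figure D5:**
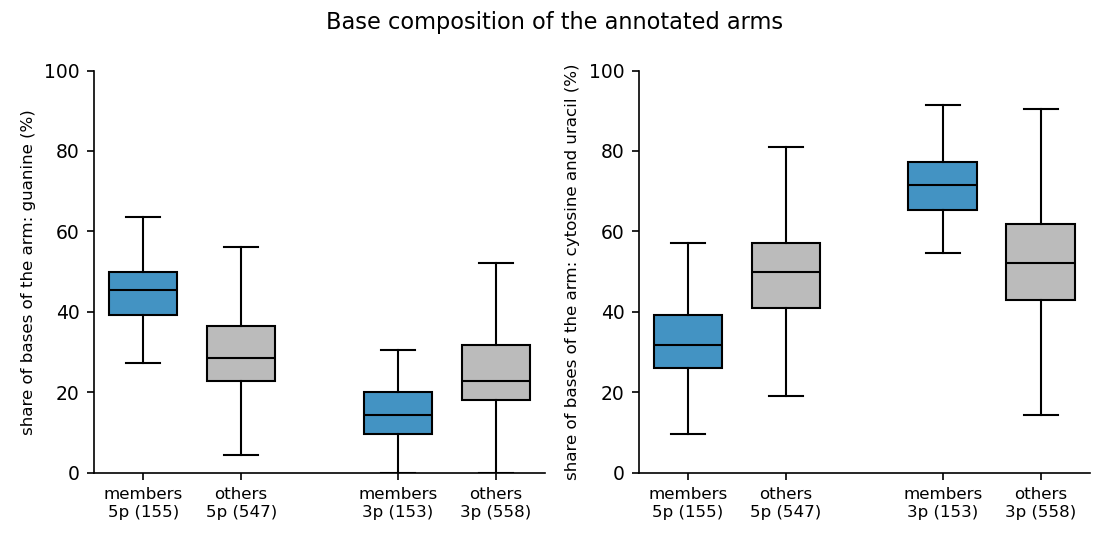
Guanine (left) and cytosine plus uracil (right) as shares of the bases (%) of annotated 5p and 3p arms, for members and other counted genes, with the number of arms in brackets. Boxes show quartiles and medians, and whiskers reach the last arm within 1.5 box lengths; member 5p arms centre on 45.5% guanine and member 3p arms on 71.4% cytosine and uracil.

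Established mirtrons were set beside the members as a reference for the same tissue. Mir877 in Abcf1 had 180 and 312 counts, 70.9 ± 2.65 CPM (SD, n = 2), and Mir702 in Plod3 had 51 and 120 counts, 23.8 ± 5.96 CPM. Mir1224 in Vwa5b2 had 3 and 1 counts. Mir877 thus stood at 7.52 times the mean level of Mir7036b, and Mir1224 was at or under the limit of 3 counts. Among all 11 other genes with both ends at splice sites 5 were detected, and their sum of 298 ± 64.4 CPM exceeded that of the 178 members in each library. Among 33 other genes with only the 3′ end at a splice site 4, or 12.1%, were detected, against 3.93% of members. They were Mir382, Mir3064, Mir3076 and Mir5134.

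Each gene was tested for a difference between the libraries, two-sided, by an exact binomial test given the library totals, which speaks of these libraries and of no condition. Of the 121 members with a count, 1 had an adjusted p under 0.05 (Benjamini-Hochberg over 711 genes), against 20.1% of all 711 genes tested. It was lower in replicate 2, as were 11.5% of all genes, and no member was higher in replicate 2, against 8.58% of all genes. This was Mir6913 in Dohh, the gene of an enzyme of hypusine synthesis, with 6 counts in replicate 1 and 0 in replicate 2 (exact adjusted p = 0.0166). A p under 0.05 without adjustment was found for 5 members. The 7 detected members differed between the libraries by 1.03-fold to 1.46-fold, with 3 of 7 higher in replicate 2, and the lowest exact adjusted p among them was 0.393. Counts this low leave most differences undetectable at this depth.

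Of 956 member counts on either strand over both libraries, 14, or 1.46%, lay on the opposite strand, against 10.4% and 10.5% of counts over all genes in replicates 1 and 2. The lists most like the members had lower shares: 0.0349% in the 698 other intronic genes without mirtron geometry, 0.354% in the other late-annotated genes, and no opposite-strand count in the other genes with both ends or only the 3′ end at splice sites. Of these 14, 12 belonged to Mir7071 in replicate 2, and Mir7040 in Loxl3 and Mir7079 in Rpl13 had 1 each. The last 2 genes had no count on their own strand.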

How the data were processed

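The authors deposited raw counts of reads per gene, 1 table per library. Build mm10 and GENCODE M4 genes are named per the deposited file lists. Aligner and counter: not given in the sources used here. Same-strand counts were scaled to CPM. Of 7671547 and 12554684 reads, 36.7% and 32.0% mapped to several places, 19.6% and 24.2% were unmapped and 5.72% and 5.64% fell outside the genes on either strand, and these were left out.

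Symbols, coordinates and introns came from GENCODE M21, on the same build, which matched 1894 of 1973 identifiers; sequences came from RefSeq (GRCm38.p6). The host is the same-strand intron whose ends lie closest to those of the hairpin. Mirtron geometry means both ends within 10 bases. The classes with 1 end at a splice site were chosen after seeing the data. No genome sequence was used, so copies outside annotated microRNA loci were not searched.

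The labels name 1 group of 2 libraries, so groups were not compared; 2 libraries cannot give an exact two-sided p below 0.5. Nothing in the labels says more of the separation of the libraries than their replicate numbers and biosamples. The members and lists were chosen with earlier results of these data known. Genes were named by rule: members with at least 10 counts in a library, members called between libraries, the 3 with most opposite-strand counts, the 5 shortest complete mirtron introns counted in both libraries, and Mir702, Mir877 and Mir1224; others were named after their values were seen. The exact binomial test was tested on simulated counts. Software was Python 3.11.15, scipy 1.17.1, RNAfold 2.7.2 and R 4.3.3, with edgeR 4.0.16 and DESeq2 1.42.0 for alternative library sizes.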

Additional observations from a re-analysis of the deposited data

Results flagged for a closer look

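A signal appeared on the strand opposite Mir7071, which the levels above leave out. Replicate 2 held 12 counts there, over the 3 that a count of 0 allows, and replicate 1 held 0. The hairpin (chr8:88138206-88138274, plus strand) lies in intron 1 of 14 of Heatr3, and M21 places the gene Gm9988 on the opposite strand over it. On its own strand Mir7071 had 2 and 10 counts.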

How the results depend on the processing

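The count of detected members moved with the limit, from 7 at 10 counts in each library to 59 at 1 count, 15 at 5 counts and 3 at 20 counts. With 1 library it ran from 9 to 18. Detected members with both ends at splice sites went from 1 to 8 at 1 count in each library, to 2 with ends within 20 bases, and ran from 1 to 4 with 1 library. Members with that geometry went from 18 to 32 with ends within 20 bases. With all reads of the library as the total, the summed level was 45.7 CPM in place of 134 CPM, by construction. Members called different between libraries went from 1 to 2 with both strands counted, which adds Mir7071, and to 0 among the 27 members with at least 10 counts over both libraries, where Mir6913 is not tested. TMM and DESeq2 library sizes left the 20 levels drawn by library within 1 SD. Counting both strands moved 5 of these 20 levels beyond 1 SD, and all reads of the library as the total moved 16. No paired analysis was possible because there is only 1 group. With 1 library, members with a count ran from 86 to 94 and the summed level from 124 to 144 CPM. Depth limits the rest: a gene at a level under 1.15 CPM in replicate 1 or 0.700 CPM in replicate 2 may give no count there. A count of 0 is therefore not absence.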

Other observations

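The members carried 284 different seeds on 308 annotated arms, 20 of which were shared by at least 2 members and none by more than 3. Of the 284, 32 also occurred in other counted genes. The seed of miR-7069-3p is also that of miR-18a-3p, whose gene Mir18 stood at 7914 CPM. The seed of miR-6932-3p and miR-7039-3p is also that of miR-26b-3p, whose gene Mir26b stood at 38964 CPM, and the seed of miR-6921-5p is that of miR-423-5p, whose gene stood at 9346 CPM. These levels are of whole hairpins, so the share of the named arm is not known.

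The 178 members lay in 174 host genes, and 4 hosts held 2 members each. In Skiv2l, Mir6971 in intron 19 had 12 and 17 counts and Mir6970, which fills intron 14 and shares a word with Gm27471, had none. In Srebf1, the gene of a regulator of lipid synthesis, Mir6921 had 1 and 3 counts and Mir6922 had 3 and 0. In Arap3, Mir6980 had 0 and 4 counts and Mir6981 had 1 and 0. In Cmip, neither Mir7077 nor Mir7078 had a count.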
